A study of Mus musculus with 4 samples.

Results

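The proneural and intermediate progenitor genes examined here are 9 genes, Neurog2, Neurog1, Neurod4, Eomes, Insm1, Hes6, Gadd45g, Btg2 and Mfng, out of 30637 genes listed in the deposited expression table. They were found by gene symbol, and each was listed once. The RNA came from the telencephalon, the forebrain region from which cortex and basal ganglia develop, of C57BL/6 mouse embryos at embryonic day 13, and was sequenced after poly(A) enrichment. The groups were 2 Pd1CKO libraries (Pd1CKO 1 and Pd1CKO 2), with Pd1 conditionally deleted, and 2 control libraries (control 1 and control 2), which the titles call wild type while the design text gives them as Pd1fl/fl, that is, with floxed alleles. The sources used here do not name the Cre driver of the deletion, nor say whether 1 embryo or a pool gave each RNA sample. The study asked how Pd1 affects proliferation and differentiation of neural progenitors.

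In the developing cortex, radial glia divide at the ventricle and give rise to intermediate progenitors, which divide away from it and produce most glutamatergic neurons. Proneural factors are basic helix-loop-helix (bHLH) proteins that pair with E proteins, bind E-box DNA and switch on Notch ligands and a cascade of neuronal transcription factors. Hes and Id proteins oppose them. Eomes (Tbr2) is the defining factor of cortical intermediate progenitors, whereas Insm1, Hes6, Gadd45g, Btg2 and Mfng also mark newly committed progenitors in other parts of the embryonic nervous system, the ventral telencephalon included. In bulk tissue, fewer cells of a type and less RNA per cell cannot be told apart.

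Expression was given as FPKM, fragment counts divided by exon length and library size, a scale on which genes of different length can be compared. The values implied 18727000 counted fragments in Pd1CKO 1, 18096000 in Pd1CKO 2, 18567000 in control 1 and 16196000 in control 2. The replicate number in the titles, not the genotype, set the libraries apart. Over the 13927 genes that averaged 1 FPKM or more, a principal component with 81.6% of the variance of log2(FPKM + 1) divided number 1 from number 2. The labels do not say what the number marks or whether the samples came from separate litters, and p-values here reflect the spread among 4 samples that may be technical. Pdcd1, the gene of the PD-1 receptor and the presumed target, was listed at 0 in Pd1CKO 1, Pd1CKO 2 and control 1 and at 0.416 FPKM (13 fragments) in control 2, and therefore did not check the labels. A count of 0 allows up to 3 fragments, equal to 0.083 FPKM in Pd1CKO 1, 0.086 in Pd1CKO 2 and 0.084 in control 1.

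Promoter sequences of 5 of the genes are shown, because these genes differed most in how they varied between libraries: Neurog1, Neurog2, Hes6 and Gadd45g were the 4 that fell furthest in the libraries numbered 2, and Eomes was the defining factor that did not fall. The sequences are the 150 bases before the first start site in the RefSeq annotation (GRCm38.p6, the mm10 genome), read 5′ to 3′ on the strand of the gene. Capitals mark the E-box CAGCTG, the Hes-type N-box CACNAG (either strand) and the TATA element TATANAA.
Neurog2, chr3:127632986-127633135, plus strand: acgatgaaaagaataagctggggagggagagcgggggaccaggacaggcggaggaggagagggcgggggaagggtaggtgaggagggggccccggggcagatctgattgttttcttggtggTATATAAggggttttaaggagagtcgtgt
Neurog1, chr13:56252181-56252330, minus strand: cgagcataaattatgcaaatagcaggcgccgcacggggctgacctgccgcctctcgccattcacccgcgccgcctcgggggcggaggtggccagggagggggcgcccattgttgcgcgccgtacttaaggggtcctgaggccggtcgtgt
Hes6, chr1:91414039-91414188, minus strand: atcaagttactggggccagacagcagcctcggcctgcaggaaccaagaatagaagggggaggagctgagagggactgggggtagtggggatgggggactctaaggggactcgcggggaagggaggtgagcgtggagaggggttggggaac
Gadd45g, chr13:51846525-51846674, plus strand: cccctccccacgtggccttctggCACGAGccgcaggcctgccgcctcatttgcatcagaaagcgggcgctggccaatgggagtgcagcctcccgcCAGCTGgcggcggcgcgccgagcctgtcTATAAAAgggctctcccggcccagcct
Eomes, chr9:118478039-118478188, plus strand: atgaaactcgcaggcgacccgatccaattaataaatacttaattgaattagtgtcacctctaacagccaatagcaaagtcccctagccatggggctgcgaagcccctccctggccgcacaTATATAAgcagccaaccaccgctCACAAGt
The RefSeq promoter table matched 7 of the 9 genes. Its windows run from 250 bases before to 50 bases after the start site, and the motifs were searched on both strands except the TATA element. CAGCTG was found in 2 of the 7 windows (Hes6 and Gadd45g) and in 16.1% of all 27025 promoters. A second E-box, CAGATG, was found in 0 of the 7 and in 17.3% of all promoters. CACNAG was found in 4 of the 7 (Neurog2, Neurod4, Eomes and Gadd45g) and in 42.6% of all promoters. TATANAA, a motif chosen after the sequences were seen, began between 40 and 20 bases before the start site in 3 of the 7 (Neurog2, Eomes and Gadd45g) and in 1.7% of all promoters. It lay at position -29 in Neurog2, -30 in Eomes and -27 in Gadd45g, counted from the start site. A match describes these letters in this window only.

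Between Pd1CKO and control, none of the 9 genes passed the test, and no member held its Pd1CKO libraries entirely above or below its control libraries. The comparison used limma on log2(FPKM + 1) over all 13927 genes with Benjamini-Hochberg adjustment. It called 0 of the 9 genes and 0% of all genes tested at an adjusted p under 0.05. At an unadjusted p under 0.05 it called 0 of the 9 genes and 0.337% of all genes. Groups that did not overlap were found in 0 of the 9 genes and in 14.5% of all genes. The log2 fold changes of the 9 genes, Pd1CKO over control, ranged from -0.23 (Hes6) to 0.13 (Eomes), each with an adjusted p of 0.9998. The residual spread of this test holds the difference between replicate numbers, which made the intervals wide: the 95% interval of the log2 fold change ran from -0.44 to 0.71 for Eomes and from -2.19 to 2.30 for Neurog2. The values in each library follow, by the role of the gene, together with the fold between libraries of the same number, which compares libraries and not genotypes. Intervals of a fold are exact 95% counting intervals (Clopper-Pearson) and cover counting error only.

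**Figure D1:**
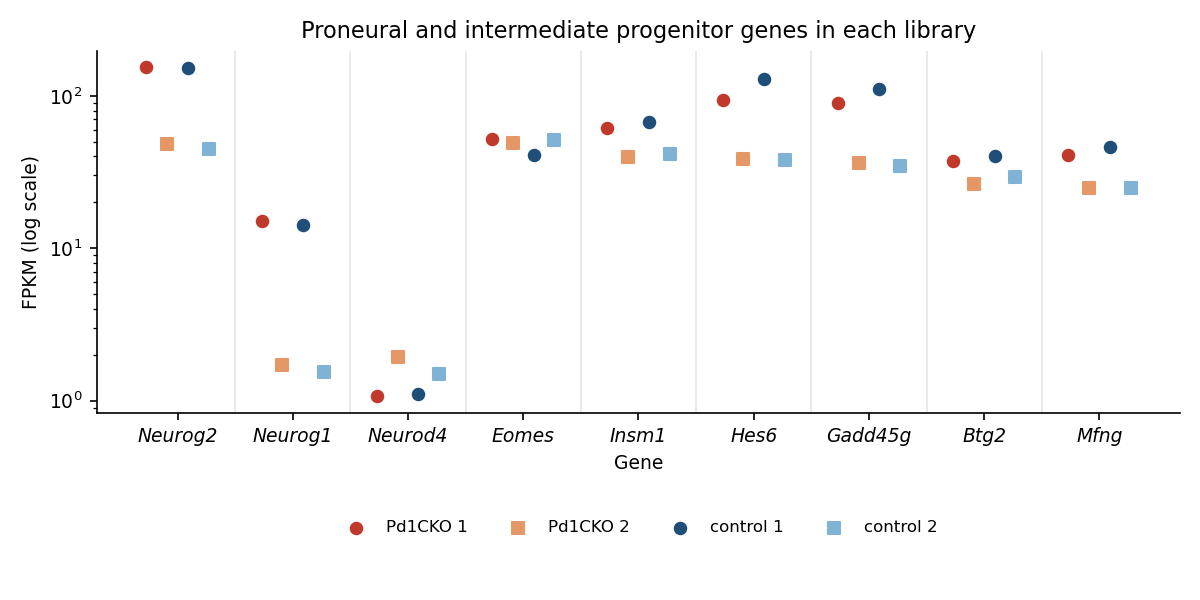
FPKM on a log axis for the 9 genes in each of the 4 libraries (circles, number 1; squares, number 2; red and orange, Pd1CKO; dark and light blue, control). The number 2 libraries lie below the number 1 libraries for 7 genes, from Neurog1 (1.70 and 1.54 against 15.0 and 14.1 FPKM) to Btg2 (26.3 and 29.1 against 37.1 and 40.5 FPKM), while Eomes stays between 40.8 and 51.8 FPKM.

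The proneural bHLH factors come first. Neurog2, the main proneural factor of the dorsal telencephalon (ENSMUSG00000027967, chromosome 3, 127633135 to 127635631, plus strand), had 154 and 47.9 FPKM in Pd1CKO 1 and Pd1CKO 2, against 152 and 44.8 FPKM in control 1 and control 2. The libraries of a number lay close together whatever the genotype, and the number 1 libraries were the high ones. The fold of Pd1CKO over control was 1.01 (0.979 to 1.05) in number 1 and 1.07 (1.0 to 1.14) in number 2. Neurog1, its close relative (ENSMUSG00000048904, chromosome 13, 56250478 to 56252163, minus strand), had 15.0 and 1.70 FPKM in Pd1CKO 1 and Pd1CKO 2, against 14.1 and 1.54 FPKM in control 1 and control 2. It rested on 474 and 52 fragments in the Pd1CKO libraries and on 441 and 42 in the controls, so the fold in number 2, 1.11, had an interval from 0.724 to 1.71. Neurod4, a bHLH factor acting downstream of the neurogenins (ENSMUSG00000048015, chromosome 10, 130268152 to 130280240, minus strand), was weakly expressed, with 1.07 and 1.92 FPKM in Pd1CKO 1 and Pd1CKO 2, against 1.11 and 1.5 FPKM in control 1 and control 2. Its fold was 0.963 (0.677 to 1.37) in number 1 and 1.28 (0.957 to 1.72) in number 2, and both intervals include 1.

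Of the intermediate progenitor factors, Eomes, a T-box transcription factor (ENSMUSG00000032446, chromosome 9, 118478212 to 118486132, plus strand), had 51.8 and 48.7 FPKM in Pd1CKO 1 and Pd1CKO 2, against 40.8 and 51.4 FPKM in control 1 and control 2. Control 1 was the low library, and the other 3 lay between 48.7 and 51.8 FPKM. The fold of Pd1CKO over control was 1.27 (1.21 to 1.33) in number 1 and 0.948 (0.905 to 0.993) in number 2. Both intervals exclude 1, on opposite sides. The antisense gene Gm33460 overlaps an exon of Eomes, and whether counting used strand is not given. Its own values were 5.88 and 4.02 FPKM in the Pd1CKO libraries, against 4.12 and 4.61 FPKM in the controls. Insm1, a zinc finger factor that promotes the formation of intermediate progenitors (ENSMUSG00000068154, chromosome 2, 146221921 to 146225020, plus strand), had 61.0 and 39.9 FPKM in Pd1CKO 1 and Pd1CKO 2, against 67.1 and 41.2 FPKM in control 1 and control 2. Its Pd1CKO library was the lower one in each number, by a fold of 0.908 (0.867 to 0.951) in number 1 and 0.968 (0.911 to 1.03) in number 2. Hes6, a Hes relative that opposes Hes1 and favours neurogenesis (ENSMUSG00000067071, chromosome 1, 91411483 to 91414038, minus strand), had 93.4 and 38.4 FPKM in Pd1CKO 1 and Pd1CKO 2, against 129.7 and 38.1 FPKM in control 1 and control 2. The number 2 libraries were nearly equal and control 1 was the high library. The fold of Pd1CKO over control, 0.72 (0.688 to 0.754) in number 1, was the furthest from 1 among the 9 genes in that number, and it was 1.01 (0.93 to 1.09) in number 2. Hes6 lies 2.62 Mb from Pdcd1 on chromosome 1.

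The growth-restraining genes and the fringe gene follow. Gadd45g, a stress-response protein gene transiently expressed as progenitors commit (ENSMUSG00000021453, chromosome 13, 51846678 to 51848468, plus strand), had 89.0 and 36.3 FPKM in Pd1CKO 1 and Pd1CKO 2, against 110.1 and 34.4 FPKM in control 1 and control 2. Its fold was 0.809 (0.761 to 0.859) in number 1 and 1.06 (0.949 to 1.17) in number 2. Btg2 (Tis21), an antiproliferative gene that marks progenitors making neurons (ENSMUSG00000020423, chromosome 1, 134075170 to 134079120, minus strand), had 37.1 and 26.3 FPKM in Pd1CKO 1 and Pd1CKO 2, against 40.5 and 29.1 FPKM in control 1 and control 2. It was lower in Pd1CKO in each number by a similar factor, 0.917 (0.861 to 0.976) in number 1 and 0.905 (0.837 to 0.978) in number 2. Among the 9 genes, Btg2 alone had intervals that excluded 1 on the same side in both numbers, and its log2 fold change in limma was -0.13 ± 0.29 (SE), within the spread. Mfng, a glycosyltransferase that tunes the response of Notch receptors to their ligands (ENSMUSG00000018169, chromosome 15, 78755882 to 78773475, minus strand), had 40.9 and 24.9 FPKM in Pd1CKO 1 and Pd1CKO 2, against 46.4 and 24.9 FPKM in control 1 and control 2. Its fold was 0.881 (0.831 to 0.934) in number 1 and 1.0 (0.925 to 1.09) in number 2.

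**Figure D2:**
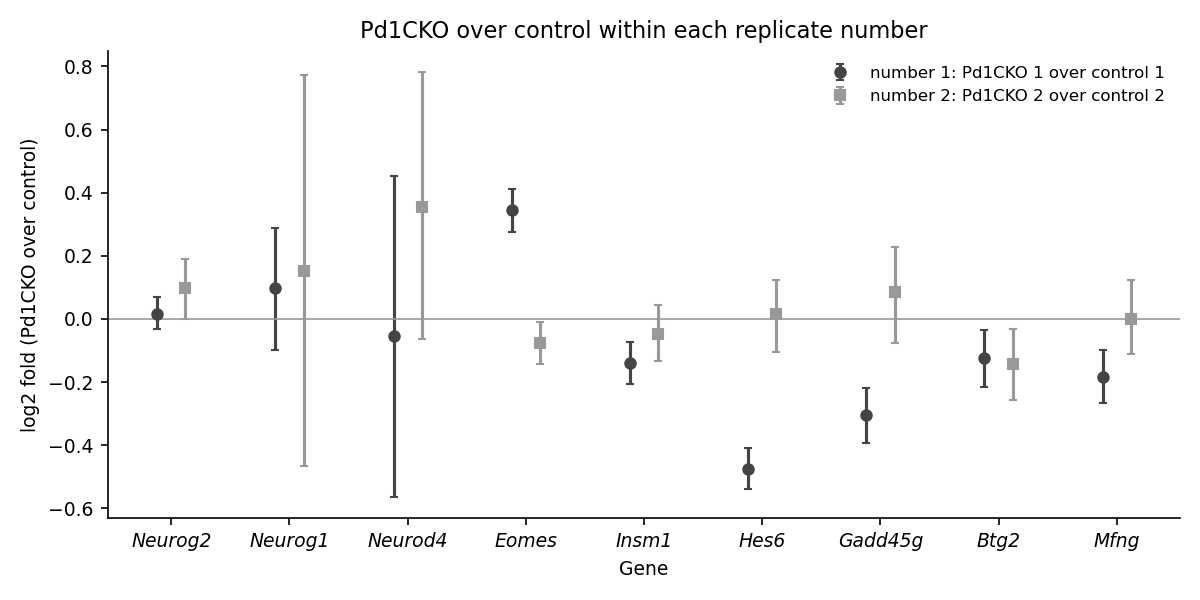
The log2 fold of Pd1CKO over control within number 1 (dark circles) and within number 2 (grey squares) for the 9 genes, with exact 95% counting intervals. Number 1 ranges from a fold of 0.72 for Hes6 to 1.27 for Eomes, number 2 from 0.905 for Btg2 to 1.28 for Neurod4.

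The folds of the 9 genes thus differed between the numbers. In number 1, 6 of the 9 genes were lower in Pd1CKO, with a median log2 difference of -0.12 on the log2(FPKM + 1) scale, where 45.3% of all genes tested were lower and the median was 0.03. In number 2, 3 of the 9 were lower with a median of 0.01, where 49.9% of all genes were lower and the median was 0.00. Neurog1 and Neurog2 were higher in Pd1CKO in both numbers, as were 28.2% of all genes. Insm1 and Btg2 were lower in both, as were 23.5% of all genes. The other 5 changed direction between numbers, as did 48.1% of all genes. Of these, Hes6 (0.01) and Mfng (0.00) were nearly equal in Pd1CKO 2 and control 2, so their change of direction rests on very small differences. The difference between the numbers was not tested, since a model with that term leaves no residual degrees of freedom. In number 1 the log2 difference between Pd1CKO and control followed gene properties over the 13908 genes with a length and GC content (Spearman correlation across genes 0.30 with exon length and -0.33 with GC content, against 0.02 and -0.06 in number 2). The 6 genes lower in Pd1CKO 1 ranged in GC content from 38% (Neurod4) and 49.7% (Btg2) to 62.0% (Insm1), and the 3 higher ones from 53.9% (Eomes) to 58.0% (Neurog1), where the median of all genes tested was 49.7%. With both trends taken out, the log2 difference in number 1 lay nearer to 0 for Hes6 (-0.25 in place of -0.47), Gadd45g (-0.12 in place of -0.30), Insm1 (0.06 in place of -0.14), Mfng (-0.02 in place of -0.18) and Btg2 (-0.10 in place of -0.12). It lay farther from 0 for Neurog1 (0.27 in place of 0.09), Neurog2 (0.16 in place of 0.02), Neurod4 (-0.10 in place of -0.03) and Eomes (0.38 in place of 0.34). The part of these trends in the values was not tested further.

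Between the libraries numbered 2 and those numbered 1, by contrast, 7 of the 9 genes fell and the other 2 did not pass. Both number 2 libraries lay below both number 1 libraries for these 7 genes, a pattern found in 34.1% of all genes tested. In limma, with replicate number as the only term, the 7 genes were called lower at an adjusted p under 0.05, as were 18.5% of all genes, and 0 of the 9 were called higher, where 16.5% of all genes were. On simulated data, with far fewer changed genes than were called here, this test gave more false calls than the threshold allows for. The share of false calls in these libraries was not tested, which limits the calls and adjusted p-values here. The median log2 difference of the 9 genes, number 2 minus number 1, was -0.78, and that of all genes tested was 0.03. The neurogenins led. Neurog1 had 1.70 and 1.54 FPKM in the libraries numbered 2 (Pd1CKO 2 and control 2), against 15.0 and 14.1 FPKM in Pd1CKO 1 and control 1, with a log2 difference of -2.57 ± 0.10 (SE) and an adjusted p of 0.000423 in limma. The fold of number 1 over number 2 was 8.81 (6.61 to 12) within Pd1CKO and 9.16 (6.67 to 12.9) within control. Neurog2 fell by 1.71 ± 0.09 on the log2 scale (adjusted p = 0.000525 in limma), Hes6 by 1.5 ± 0.16 (adjusted p = 0.0031 in limma) and Gadd45g by 1.46 ± 0.12 (adjusted p = 0.00168 in limma). Smaller decreases were found for Mfng (-0.78, adjusted p = 0.00422 in limma), Insm1 (-0.65, adjusted p = 0.00595 in limma) and Btg2 (-0.47, adjusted p = 0.0184 in limma). The call of Btg2 was lost without Pd1CKO 2 (adjusted p = 0.187 in limma), without control 2 (0.0736) and without the filter on low values (0.0544).

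Eomes and Neurod4 did not pass. Eomes differed by 0.12 ± 0.13 (adjusted p = 0.516 in limma), and it passed as higher in number 2 only when Pd1CKO 1 was left out (0.29, adjusted p = 0.0267 in limma). Neurod4 was higher in both number 2 libraries, 1.92 and 1.5 FPKM in Pd1CKO 2 and control 2 against 1.07 and 1.11 FPKM in Pd1CKO 1 and control 1, with a log2 difference of 0.37 ± 0.15 (adjusted p = 0.114 in limma). Both number 2 libraries of a gene lay above both number 1 libraries in 38.5% of all genes tested.

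Gene length and GC content moved with this difference as well (Spearman correlation across 13908 genes 0.29 with exon length and -0.28 with GC content). The 9 genes had a median exon length of 2743 bases and a median GC content of 58.0%, against 4014 bases and 49.7% for all genes tested. With these trends taken out, 6 of the 9 genes were still called lower, as were 17% of all genes, and 0 were called higher, where 19.6% of all genes were. The call of Insm1 was lost, at -0.04 (adjusted p = 0.721 in limma). The differences of Hes6 (-0.75), Gadd45g (-0.77) and Mfng (-0.43) were nearer to 0, as were those of Neurog1 (-2.07), Neurog2 (-1.39) and Btg2 (-0.41). Neurod4, with the lowest GC content of the 9 at 38%, stood at 0.26 and Eomes at 0.17, both without a call.

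**Figure D3:**
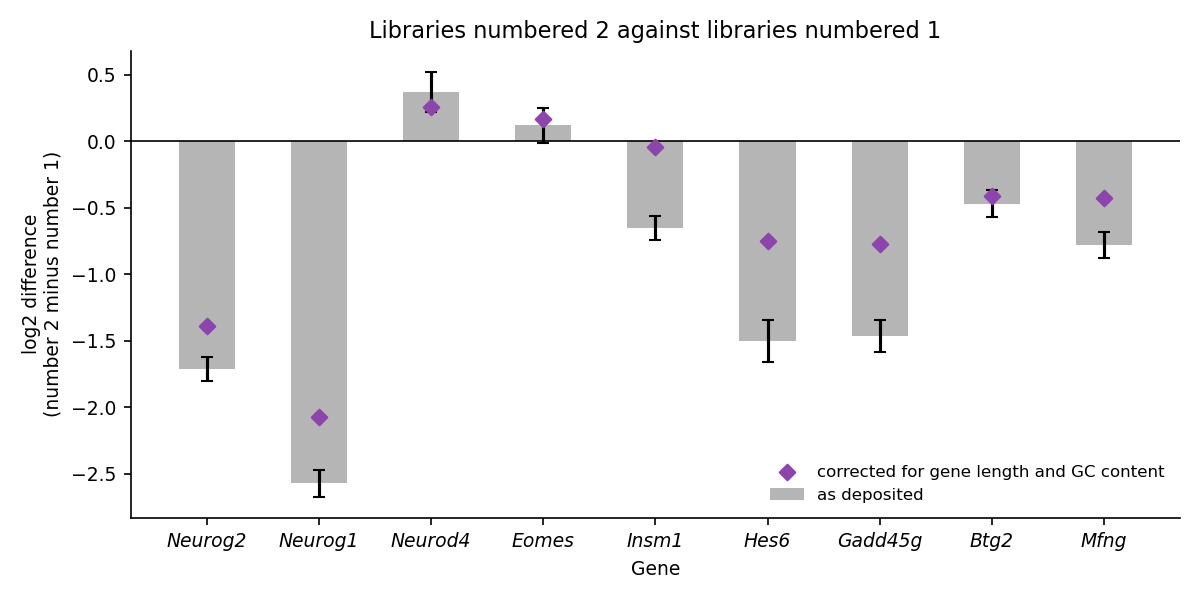
Log2 difference of the libraries numbered 2 minus those numbered 1 on the log2(FPKM + 1) scale for the 9 genes; grey bars are the limma estimate with its SE (2 libraries a number), and diamonds the estimate once length and GC trends are taken out. Bars reach from -2.57 for Neurog1 to 0.37 for Neurod4, and the diamond of Insm1 is at -0.04.

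The order of the levels changed between the numbers. In Pd1CKO 1 and control 1 it began with Neurog2, Hes6, Gadd45g and Insm1. The ranges of Hes6 (93.4 to 129.7 FPKM) and Gadd45g (89.0 to 110.1 FPKM) overlapped there, as did those of Eomes (40.8 to 51.8 FPKM) and Mfng (40.9 to 46.4 FPKM). In Pd1CKO 2 and control 2 the order was Eomes, Neurog2, Insm1, Hes6, Gadd45g, Btg2 and Mfng, with no overlap between the ranges of neighbours. Neurog1 and Neurod4 were the lowest pair in every library, and their ranges overlapped in the libraries numbered 2 (1.54 to 1.70 FPKM and 1.5 to 1.92 FPKM). A ratio taken within a library does not depend on library scaling, but it keeps the trends with gene length and GC content. The ratio of Eomes to Neurog2 was 0.336 in Pd1CKO 1 and 1.02 in Pd1CKO 2, against 0.268 in control 1 and 1.15 in control 2. Relative to Pax6, the radial glia factor that acts upstream of Neurog2, Neurog2 stood at 10.2 and 5.23 in Pd1CKO 1 and Pd1CKO 2, against 11.3 and 4.55 in control 1 and control 2. Eomes over Pax6 ran the other way, with 3.41 and 5.31 in Pd1CKO 1 and Pd1CKO 2, against 3.02 and 5.22 in control 1 and control 2. Btg2 over Pax6 stayed between 2.44 and 2.99 in all 4 libraries, Insm1 over Pax6 between 4.01 and 4.97, and Mfng over Pax6 between 2.53 and 3.43. With the length and GC trends taken out, the log2 difference between the numbers was -0.82 in place of -0.55 for Pax6. For Neurog2 it was -1.39 in place of -1.71, so the ratio of Neurog2 to Pax6 holds part of these trends.

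The rest of the pathway was read from lists of known partners, opponents and targets. No gene of any of these lists passed between Pd1CKO and control (0 of 50 tested, where 0% of all genes passed). Between the numbers the lists divided. Of the 9 genes that oppose proneural factors, 6 fell in number 2, 1 rose and 2 did not pass, with a median log2 difference of -1.39. Of all genes tested 18.5% fell and 16.5% rose. Hes1, a Notch effector that represses proneural genes, had 6.37 and 6.40 FPKM in Pd1CKO 2 and control 2, against 28.8 and 23.3 FPKM in Pd1CKO 1 and control 1. Hes5, another such effector, had 7.90 and 9.51 FPKM in Pd1CKO 2 and control 2, against 46.6 and 68.2 FPKM in Pd1CKO 1 and control 1. Id1, Id3 and Id4, which sequester E proteins, fell as well (-2.77, -2.00 and -1.39), whereas Id2 rose by 1.67 (adjusted p = 0.000512 in limma). Hey2 (-0.23) and Rest (-0.55) did not pass. Among the 3 E proteins, Tcf3 fell (-1.60, adjusted p = 0.000809 in limma), while Tcf4 (0.45) and Tcf12 (-0.21) did not pass.

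Of the 7 Notch ligand and fringe genes, 3 fell and 4 did not pass, where 18.5% of all genes fell. Dll3 and Dll1, ligands switched on by proneural factors in committing cells, had log2 differences of -2.79 and -1.04, and Lfng, the fringe of cortical progenitors, one of -0.87. Rfng, the third fringe gene, differed by 0.02, so that Mfng at -0.78 lay close to Lfng. The ligand Jag1 (-0.53) and the endothelial ligand Dll4 (-0.21) did not pass. The 7 other bHLH genes above the filter held 2 that fell, 2 that rose and 3 that did not pass, where 18.5% of all genes fell and 16.5% rose. Neurod1, which follows Eomes in the cortical sequence, rose by 0.60 (adjusted p = 0.00579 in limma). Bhlhe22 (0.14) and Nhlh2 (-0.10) did not pass. Atoh1, Neurog3 and Ptf1a, proneural factors of other regions, were at or below 0.129 FPKM in every library.

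Of the 10 targets of proneural factors and intermediate progenitor markers, 3 rose, 1 fell and 6 did not pass, with a median of 0.06, where 16.5% of all genes rose and 18.5% fell. Rnd2, a small GTPase gene that Neurog2 controls in migrating neurons, had 101 and 112 FPKM in Pd1CKO 2 and control 2 against 118 and 121 FPKM in Pd1CKO 1 and control 1, a difference that did not pass (-0.17, adjusted p = 0.214 in limma). Slc17a6 (0.28) did not pass either. In the cortical sequence Pax6, Emx1 and Emx2 fell and Tbr1, the factor of early postmitotic neurons, did not pass at 0.30 (adjusted p = 0.106 in limma). Bcl11b was not analysed here. Among 9 antiproliferative relatives 7 fell and 2 did not pass, where 18.5% of all genes fell. Gadd45a and Gadd45b, the relatives of Gadd45g, fell by 1.37 and 0.87 on the log2 scale, and Btg1, the relative of Btg2, fell by 0.31. Tob1 fell by 0.58, and the cell cycle inhibitor Cdkn1b did not pass (0.10). Removal of the length and GC trends ended the calls of Gadd45b (adjusted p = 0.0625 in limma) and of the bHLH gene Nhlh1 (0.0636), and gave calls to Tcf12, Rest, Plekha7, Jag1, Tob2 (lower), Jag2 and Rfng (higher).

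**Figure D4:**
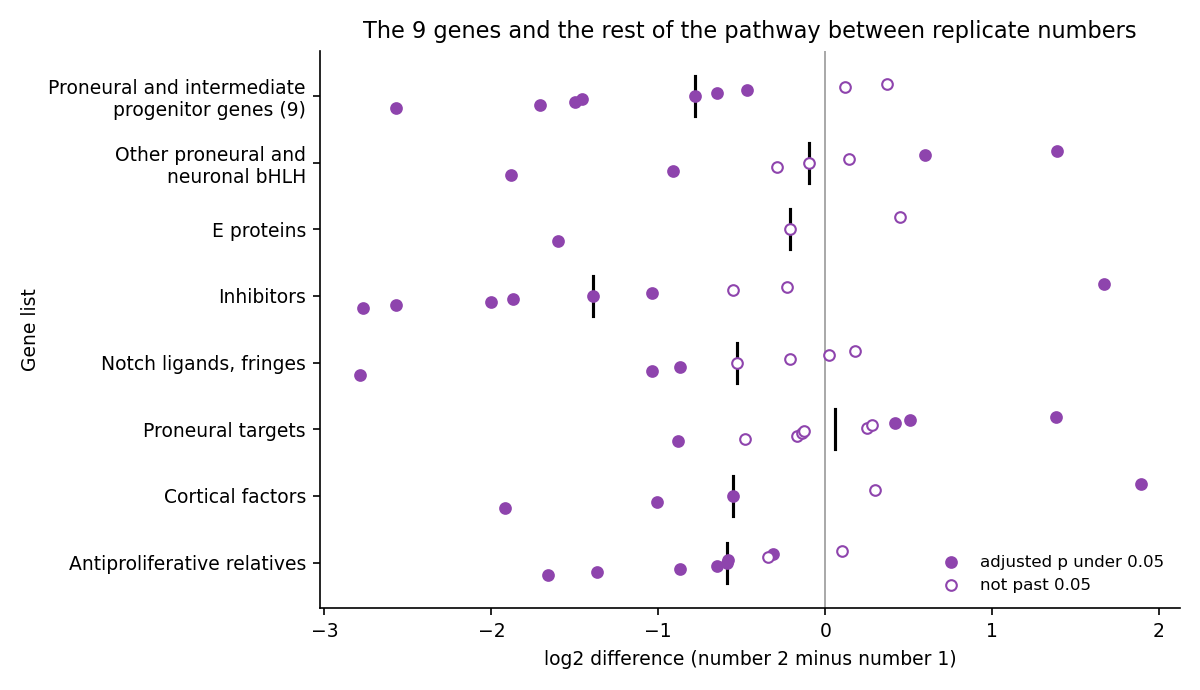
Log2 difference of the libraries numbered 2 minus those numbered 1 for each tested gene (dots) of the 9 proneural and intermediate progenitor genes and 7 further lists; filled dots passed an adjusted p under 0.05 in limma, and bars mark list medians. Inhibitors have the lowest median, -1.39, and proneural targets are centred at 0.06.

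Markers of the cells around these genes moved with the replicate number too. Of the 10 radial glia genes, 7 fell and 3 rose in number 2, where 18.5% of all genes fell and 16.5% rose, with Sox2 at 50.5 and 53.3 FPKM in Pd1CKO 2 and control 2 against 143 and 149 FPKM in Pd1CKO 1 and control 1. Slc1a3 and Ptprz1 were among those that rose (0.48 and 0.58), and both lost their calls with the length and GC correction (adjusted p = 0.0673 and 0.0716 in limma), which left 7 lower and 1 higher. Of the 10 postmitotic neuron genes 5 rose, 0 fell and 5 did not pass, and Tubb3, Nefm and Ina were among the last (0.54, -0.16 and 0.32). With the correction 6 rose and 0 fell, where 19.6% of all genes rose and 17% fell. Tubb3 (1.0, adjusted p = 0.011 in limma) and Ina (0.51, adjusted p = 0.0225 in limma) were among the 6, and Nefl lost its call (adjusted p = 0.0514 in limma). Of the 12 ventral telencephalon genes 6 fell, 1 rose and 5 did not pass, among them Isl1 and Lhx8, and with the correction 5 fell and 0 rose. Their summed level was 279 and 214 FPKM in Pd1CKO 1 and Pd1CKO 2, against 410.1 and 205 FPKM in control 1 and control 2. Dlx2 had 57.5 and 25.9 FPKM in Pd1CKO 1 and Pd1CKO 2, against 82.8 and 20.3 FPKM in control 1 and control 2. Control 1 had the highest ventral level and the highest Hes6, Gadd45g, Insm1, Btg2 and Mfng. Neurog1, Neurog2 and Eomes were highest in Pd1CKO 1, and Neurod4 in Pd1CKO 2. The part of ventral tissue in these values was not tested.

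Markers of tissues beside the telencephalon were uneven as well. Of the 9 diencephalon genes, which mark a region that expresses Neurog1 and Neurog2 too, 5 were above the filter, and all 5 were lower in Pd1CKO in each number, as were 23.5% of all genes. Below the filter, Foxd1 ran the other way in number 1. It had 2.33 and 0.0654 FPKM in Pd1CKO 1 and Pd1CKO 2, against 1.48 and 0.122 FPKM in control 1 and control 2. The summed level of all 9 was 20.5 and 10.9 FPKM in Pd1CKO 1 and Pd1CKO 2, against 52.9 and 14.4 FPKM in control 1 and control 2, with Gbx2 at 1.54 and 1.12 FPKM against 11.2 and 1.93 FPKM and Tcf7l2 at 2.60 and 3.17 FPKM against 11.9 and 4.56 FPKM. The folds of Pd1CKO 1 over control 1 were 1.07 for Neurog1 and 1.01 for Neurog2. None of the 6 midbrain and hindbrain genes found reached the filter, and their sum was 0.201 to 0.339 FPKM in Pd1CKO and 0.279 to 0.374 FPKM in control. Choroid plexus genes (6, of which 5 were tested) summed to 276 and 341 FPKM in Pd1CKO 1 and Pd1CKO 2, against 205 and 21.2 FPKM in control 1 and control 2. Most of this sum was Ttr, with 246 and 325 FPKM in Pd1CKO 1 and Pd1CKO 2, against 182 and 17 FPKM in control 1 and control 2, and Folr1 had 1.98 and 2.43 FPKM against 1.59 and 0.134 FPKM. Otx2, also expressed in other regions, ran the other way in number 1, with 6.27 and 3.25 FPKM in Pd1CKO 1 and Pd1CKO 2, against 9.59 and 3.13 FPKM in control 1 and control 2. Unlike the sum, Kcne2 and Clic6 were lower in Pd1CKO 2 (6.41 and 4.29 FPKM) than in Pd1CKO 1 (9.51 and 11.8 FPKM). Erythroid genes (6) summed to 439 and 477 FPKM in Pd1CKO 2 and control 2, against 1808 and 1789.9 FPKM in Pd1CKO 1 and control 1, with embryonic Hbb-y at 68.0 and 101 FPKM against 1079 and 981 FPKM and the adult-type Hba-a1 and Hba-a2 also lower. Of the 6 erythroid genes 5 fell, where 18.5% of all genes fell, and 3 with the length and GC correction, where 17% did. Under the correction Hba-a1 (-0.05, adjusted p = 0.634 in limma) and Hba-a2 (-0.53, adjusted p = 0.218 in limma) lost their calls. Meningeal genes (6) summed to 3.31 and 2.49 FPKM in Pd1CKO 2 and control 2, against 56.2 and 32.8 FPKM in Pd1CKO 1 and control 1. Of these 6 genes 5 fell, Col1a2 among them (-2.75), where 18.5% of all genes fell. Pdgfra did not pass (-0.24, adjusted p = 0.417 in limma). Microglial genes (6, Tyrobp and Csf1r included) summed to 22.9 and 17.6 FPKM in Pd1CKO 1 and Pd1CKO 2, against 19.7 and 17 FPKM in control 1 and control 2. No list had a gene at 0 in all libraries. The part of these tissues in the values of the 9 genes was not tested.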

How the data were processed

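Poly(A)-selected RNA of 4 libraries was analysed. The deposited table holds 1 FPKM value per gene and library, made by the authors. No unit is in its header, and the unit was read from the values. The submitters' processing notes name mm10, FastQC, fastp, HISAT2, TopHat, StringTie and featureCounts, without versions or order. Fragments were recovered from the FPKM steps with exon-union lengths from Gencode M21, which held 99.8% of them by ID. Of the values below 200 fragments, 99.4% to 99.6% came out whole within 0.1. PCR copies cannot be told apart, so intervals cover counting error only.

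Genotype and replicate number were each tested with limma 3.58.1 (R 4.3.3, intensity-dependent prior, two-sided) on log2(FPKM + 1) for genes averaging 1 FPKM or more, which all 9 genes had, and p-values were adjusted over all 13927 genes. The added 1 shrinks the fold changes of low genes. The fit was tested on simulated data: with a number difference like that of these libraries the genotype test missed the planted changes, so the absence of genotype calls does not show that levels were equal. The number test was simulated with far fewer changed genes than were called in these libraries. It found nearly all planted changes, with more false calls than the threshold allows for. Trends with length and GC content were removed by loess (span 0.5). Python 3.11.15 was used for folds and figures. The genes, lists and naming rule (the 9 genes, the 2 smallest genotype p-values of each list and listed partners and markers) were chosen with earlier results of these data known. Rfng, Jag2, Otx2, Emx1, Nhlh1, Plekha7, Tob2, Foxd1, Nefl, Kcne2 and Clic6 were named after their values were seen. Alternatives were other scalings, pseudocounts, filters and priors, a replicate block, limma-voom and each library left out. Of the housekeeping list, 0 of 8 genes passed for genotype and 2 of 8 fell in number 2. The deposited tables of ratios and of 1 pair were not used. Some genes counted in the lists are not reported here by name.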

Additional observations from a re-analysis of the deposited data

How the results depend on the processing

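The genotype comparison called 0 genes in each direction under every alternative except the replicate block, which called 3 higher and 2 lower, none of them among the 9 genes. Libraries of the same number deviated together (correlation 0.799), but with 2 pairs and no label saying what the number marks this is a hint from the data. In the block fit the adjusted p of the 9 genes was 0.9589 to 0.9662. For number 2 against number 1, the counts were 2304 higher and 2573 lower, and 1266 and 1710 without the filter. With FPKM rescaled to a fixed sum (TPM), which moved the median of all genes from 0.03 to 0.16, they were 3248 and 2051. With each library left out, the lone sample being assumed to vary like the others, they ranged from 1018 to 3586 higher and from 1596 to 3264 lower. Leaving out a library sets number partly against genotype. The genotype log2 fold changes then ranged from -0.03 to 0.29 for Eomes, -1.20 to 1.37 for Neurog1, -0.81 to 0.93 for Neurog2, -0.44 to 0.25 for Insm1, -0.15 to 0.35 for Neurod4, -1.10 to 0.64 for Hes6, -0.37 to 0.11 for Btg2, -0.94 to 0.71 for Gadd45g and -0.52 to 0.35 for Mfng, so all 9 changed sign. The number difference of Eomes ranged from -0.05 to 0.29. All other 81 genotype values of the 9 genes kept their direction and stayed without a call. Of the 81 such number values, 78 kept direction and call, and the other 3 were the Insm1 and Btg2 losses (Insm1 also in the block fit with the length and GC correction). At 42 to 116 fragments, Neurog1 in number 2 and Neurod4 are limited by depth.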
